A study of Mus musculus with 10 samples.

Results

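Interferon-gamma, its receptor and signalling proteins and the genes it induces were examined in KPN1.1 tumors, a mouse lung adenocarcinoma line grown under the skin of obese mice. The genes were chosen by name, as a list of 38 genes comprising the ligand, 2 receptor chains, 2 receptor kinases, 4 transcription factors, 3 inhibitors of the signal, 10 guanylate-binding proteins, 6 immunity-related GTPases, 5 inducible enzymes and 5 other inducible genes. All 38 were found among the 55401 genes of the counts, and 37 of them were among the 17464 genes with enough reads to be tested. Ifng itself had too few.

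RNA of 10 tumors was sequenced, 5 from mice given the GLP-1 receptor agonist liraglutide and 5 from mice given phosphate-buffered saline, called vehicle here. Per the study's methods, all mice were male C57BL/6J animals with obesity induced by a high-fat diet, and injections into the abdomen began once a tumor could be felt. The study's methods give a range of ages at injection, the labels give no age or tumor size for a single mouse, and they say that tumors were taken at a fixed size limit or at the end of the study. KPN1.1 carries the NINJA neoantigen construct, and it is a single cell line. One flash-frozen fragment per tumor gave the RNA, so each value is a mixture of tumor cells and host cells. The comparison asks whether these genes differed between tumors of treated and untreated mice.

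Interferon-gamma is secreted mainly by activated T cells and natural killer (NK) cells. It binds a receptor of Ifngr1 and Ifngr2 chains, which signals through the kinases Jak1 and Jak2. The signal reaches genes that carry a palindromic site, the interferon-gamma-activated site, and switches on further factors such as Irf1, which binds a GAAA-rich element shared with the type I interferon response. The guanylate-binding proteins and the immunity-related GTPases are large GTP-hydrolysing proteins made at high levels in interferon-treated mouse cells, where they assemble on and disrupt the vacuoles and membranes of intracellular bacteria and parasites. In tumors these genes are widely used as a readout of interferon exposure.

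The sequence before the RefSeq starts of the GTPase genes held these elements, and the 30-base stretches below place them. In each line the capitals mark the letters TTCNNNGAA, the core of the interferon-gamma-activated site, or GAAANNGAA, the core of the interferon-stimulated element, searched on both strands, so that the second may appear as its reverse complement (as before Gbp2 and Gbp3). Sequences are from RefSeq promoters, written 5′ to 3′ on the strand of the gene and located on GRCm39. The starts differ between annotations, and in GENCODE M39 exons covered all 110 bases before the RefSeq starts shown for Igtp, Irgm1, Irf1, Icam1 and Socs1, 75 for Gbp2, 74 for Gbp3 and Tgtp1, 14 for Irgm2 and 0 for Tgtp2.
Igtp, chr11:58090332-58090361, plus strand: gccatTTCTAGGAActGAAACTGAAagctg
Irgm2, chr11:58105723-58105752, plus strand: gccatTTCCAGGAActGAAACTGAAagctg
Tgtp1, chr11:48883137-48883166, minus strand: gccatTTCCAGGAAtcGAAACTGAAaccta
Tgtp2, chr11:48955096-48955125, minus strand: gccatTTCCAGGAAtcGAAACCGAAaccta
Irgm1, chr11:48762253-48762282, minus strand: ttcaaGAAATAGAAACCGAAactgattctc
Gbp2, chr3:142326361-142326390, plus strand: ttagtTTCACTTTCactgtcttaagcataa
Gbp3, chr3:142265756-142265785, plus strand: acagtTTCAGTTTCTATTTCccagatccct
Irf1, chr11:53660746-53660775, plus strand: ctgatTTCCCCGAAatgatgaggccgagtg
Icam1, chr9:20927189-20927218, plus strand: gaggtTTCCCGGAAagtggccccgacagca
Socs1, chr16:10603459-10603488, minus strand: tgccgGAAAGAGAAACCGAAagcgggggtg

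The first 4 lines are shown because the same arrangement recurred in 4 immunity-related GTPase genes, with TTCNNNGAA beginning 11 bases before GAAANNGAA in each. In Irgm1, Gbp3 and Socs1 the capitals cover 2 overlapping GAAANNGAA matches. A longer stretch of 110 bases ending at the transcript start shows the setting of the paired elements in Irgm2 and Tgtp2.
Irgm2, chr11:58105693-58105802, plus strand: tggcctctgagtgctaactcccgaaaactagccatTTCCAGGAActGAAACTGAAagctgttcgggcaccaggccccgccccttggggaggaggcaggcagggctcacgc
Tgtp2, chr11:48955040-48955149, minus strand: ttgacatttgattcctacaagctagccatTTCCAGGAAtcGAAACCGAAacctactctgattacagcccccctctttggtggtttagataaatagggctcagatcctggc

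RefSeq promoters were found for 28 of the 38 genes, 10 of them GTPases. In the 250 bases before the start, GAAANNGAA was present for all 10 of these GTPase genes and TTCNNNGAA for 6 of them. Over 32851 promoters of 27025 genes, 7.13% held GAAANNGAA, 7.02% held TTCNNNGAA and 0.752% held both, against 6 of the 11 GTPase promoters (54.5%) with both. Over the promoters of all 28 genes each motif was present in 12 of 33 (36.4%). Among the other genes, TTCNNNGAA stood 90 bases before the start of Irf1 and 42 bases before that of Icam1. A match is a run of letters and was not tested for binding in these tumors.

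**Figure D1:**
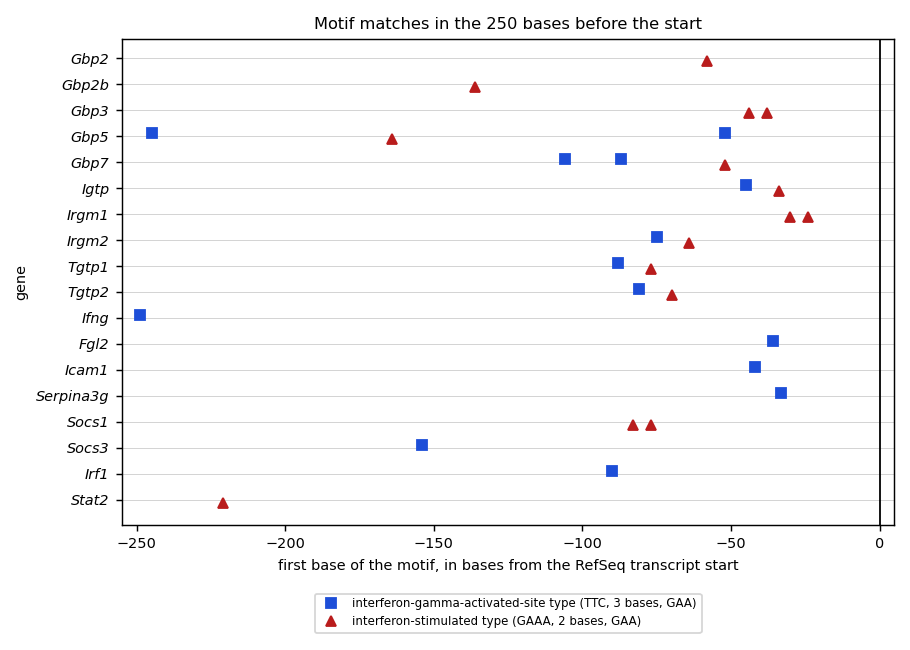
Each mark is a motif match in the 250 bases before the RefSeq transcript start (horizontal axis, bases from the start) of the 18 genes with a match (vertical axis), squares for TTCNNNGAA and triangles for GAAANNGAA. The paired marks of Igtp, Irgm2, Tgtp1 and Tgtp2 stand 11 bases apart.

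Levels are given as CPM, the read count of a gene relative to the TMM-scaled size of its library, and differences as log2 fold changes of liraglutide over vehicle from edgeR's quasi-likelihood test across all genes. Library totals ran from 9927942 to 14480593 counts, so that 3 counts, taken as the floor, correspond to 0.207 to 0.314 CPM. The epithelial keratin Krt8 was at 1626 to 3284 CPM and the lung lineage factor Nkx2-1 at 17.7 to 132 CPM in every tumor, whereas the epithelial adhesion gene Epcam was at 0.162 to 4.61 CPM and the alveolar gene Sftpc at 0 to 5.93 CPM. No label gives a sequencing batch or date.

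Across the gene list the liraglutide tumors had higher averages but no gene passed the test. Of the 37 genes tested, 34 had log2 fold changes above 0. Most genes of the list rose and fell together over the tumors, so such counts do not rest on independent genes. In log2 CPM, for example, Gbp2 correlated at r = 0.998 with Gbp7 and 0.98 with Irf1, though at -0.0797 with Jak1. The median log2 fold change was 0.58 over the list and -0.02 over all genes tested, of which 47.4% lay above 0. None was called at an adjusted p under 0.05, where the share of all 17464 genes called was 0 (0%), the smallest adjusted p in edgeR being 0.482. At an unadjusted p under 0.05, 1 gene was higher with liraglutide (Gbp10) and 1 was lower (Upp1), beside 694 genes higher (3.97%) and 981 lower (5.62%) over all genes tested. The count of higher genes on the list moved to 18 without vehicle tumor 5 (6.1% of all genes in the same fit), 4 without vehicle tumor 4 (7.12%), 2 without liraglutide tumor 2 (5.85%) and 11 with limma-voom (4.86%), and to 0 with at least 10 counts required in every tumor, where Gbp10 was left out. DESeq2 called 102 of all genes and 0 of the 17 genes on the list for which it gave an adjusted p, and gave none for the other 20, Gbp10 and Upp1 among them. The medians moved with single tumors, to 0.35 without vehicle tumor 1, 0.38 without vehicle tumor 2, 0.91 without vehicle tumor 4 and 1.04 without vehicle tumor 5, and limma-voom gave 0.99.

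In no gene on the list did the groups separate, beside 0.596% of all genes tested that were higher in every liraglutide tumor than in any vehicle tumor and 0.888% that were lower. In the map of the genes by tumor, vehicle tumors 4 and 5 had values within or above the range of the liraglutide tumors in most genes, while vehicle tumors 1, 2 and 3 had the lowest values of all 10. Those 3 tumors were the 3 lowest in 26 of the 37 genes (70.3%), compared with 6.99% of all genes tested (1221 genes). In all 16 GTPase genes these 3 tumors lay below every other tumor. Vehicle tumor 1 was the lowest of the 10 in 23 genes, and the highest value fell in vehicle tumor 5 for 15 genes and in liraglutide tumor 5 for 10. The vehicle tumors were also split beyond the list. Over all genes with enough counts, the chi-square per degree of freedom between pairs of vehicle tumors 1, 2 and 3 was 8.38 to 22. It was 35.5 to 75.7 between any of them and vehicle tumor 4 or 5, and 29.4 between tumors 4 and 5. Among liraglutide tumors it was 11.4 to 42.2.

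**Figure D2:**
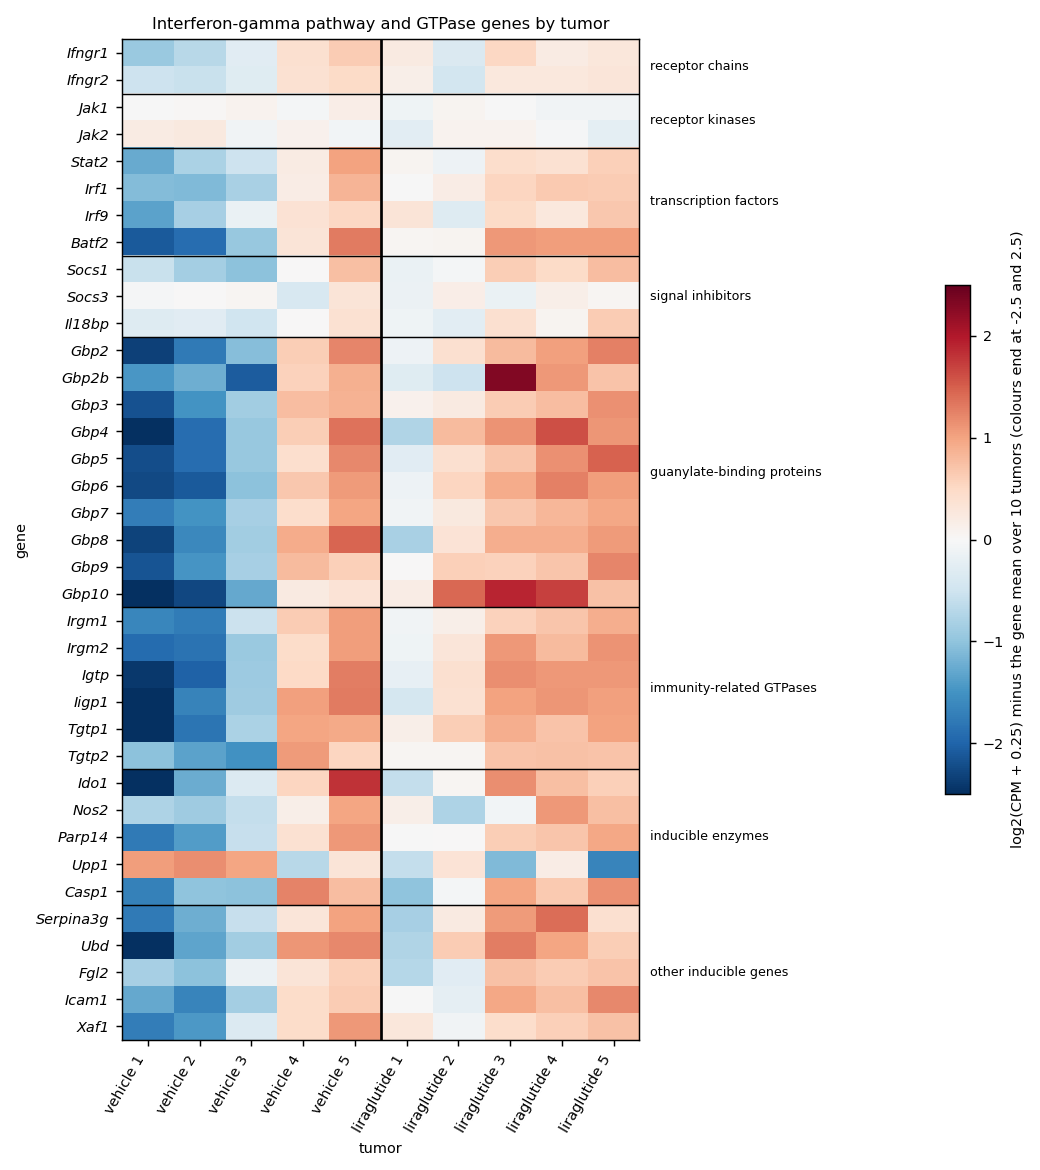
Colour gives log2 CPM minus the mean of the gene over the 10 tumors, for the 37 genes tested (rows, by role) and the tumors (columns). Vehicle tumors 1, 2 and 3 are blue across the GTPases, vehicle tumors 4 and 5 and liraglutide tumors 3, 4 and 5 are mostly red, liraglutide tumors 1 and 2 are paler, and Upp1 has the opposite pattern.

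The vehicle tumors were also more spread out. The SD of log2 CPM was larger among vehicle than among liraglutide tumors in 34 of the 37 genes (91.9%), beside 70.6% of all genes tested. Its median over the list was 1.25 among vehicle and 0.53 among liraglutide tumors, whereas over all genes tested the medians were 0.35 and 0.27. The highest vehicle tumor exceeded the lowest by 7.55-fold in the median gene and the highest liraglutide tumor the lowest by 2.22-fold, over the 36 genes with reads in every tumor.

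The ligand was near the floor. Ifng counts were 1, 0, 1, 6 and 11 in vehicle tumors 1 to 5 and 2, 3, 5, 7 and 10 in liraglutide tumors 1 to 5, which corresponds to 0.313 ± 0.378 and 0.439 ± 0.251 CPM (SD, n = 5 each). Vehicle tumors 1, 2 and 3 and liraglutide tumor 1 held fewer than 3 counts, and the highest count was in a vehicle tumor. When every gene with at least 1 count was fitted, its log2 fold change was 0.45 (adjusted p = 0.851, edgeR).

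The receptor chains differed little between groups. Ifngr1, the ligand-binding chain, was at 78.0, 91.8, 123, 196 and 234 CPM in the vehicle tumors and 176, 117, 213, 172 and 182 CPM in the liraglutide tumors, a log2 fold change of 0.25 (SE 0.29, adjusted p = 0.776, edgeR). Ifngr2, the accessory chain, was at 71.5, 69.7, 82.7, 134 and 144 CPM with vehicle and 113, 74.6, 123, 124 and 127 CPM with liraglutide, a log2 fold change of 0.17 (SE 0.23, adjusted p = 0.819, edgeR). In both genes vehicle tumors 4 and 5 were among the highest of the 10 and liraglutide tumor 2 was the lowest of its group.

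The receptor kinases were the most even genes of the list among vehicle tumors. Jak1 was at 265, 271, 283, 259 and 300 CPM in the vehicle tumors and 246, 280, 266, 253 and 251 CPM in the liraglutide tumors, a log2 fold change of -0.09 (SE 0.08, adjusted p = 0.718, edgeR). Jak2 was at 306, 314, 250, 285 and 253 CPM with vehicle and 221, 283, 282, 259 and 225 CPM with liraglutide, a log2 fold change of -0.15 (SE 0.11, adjusted p = 0.662, edgeR). The highest vehicle tumor exceeded the lowest by 1.16- and 1.25-fold in these genes, and the low values of vehicle tumors 1, 2 and 3 seen elsewhere were not present.

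Among the transcription factors, Irf1, an early target of the interferon-gamma signal on chromosome 11 (53660812 to 53669200, GRCm39, plus strand), was at 39.3, 38.6, 47.3, 94.8 and 151 CPM in the vehicle tumors and 82.7, 95.7, 122, 132 and 129 CPM in the liraglutide tumors. Its means of 74.2 ± 48.9 and 112 ± 21.8 CPM (SD, n = 5) gave a log2 fold change of 0.60 (SE 0.37, adjusted p = 0.605, edgeR). Vehicle tumors 1, 2 and 3 lay below all liraglutide tumors and vehicle tumor 5 above them all. In the annotation used here Irf1 overlaps noncoding genes on the opposite strand, and 32.4% of its 100-base windows also occur in other transcripts.

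Stat2 and Irf9, which act together in the type I interferon response, followed this order in full and in part. Stat2 was at 20.9, 28.9, 35.0, 57.6 and 101 CPM with vehicle and 52.6, 46.2, 68.1, 65.3 and 76.5 CPM with liraglutide (log2 fold change 0.34, SE 0.37, adjusted p = 0.756, edgeR). Irf9 was at 11.0, 15.8, 25.1, 36.3 and 40.4 CPM with vehicle and 35.2, 22.4, 39.2, 33.7 and 45.2 CPM with liraglutide (log2 fold change 0.45, SE 0.33, adjusted p = 0.657, edgeR). For Irf9, liraglutide tumor 2 lay below vehicle tumor 3, so the lowest tumors were mixed.

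Batf2, an inducible partner of Irf1 in macrophages, had the largest fold change of the 4 factors. Its values were 2.82, 3.23, 6.60, 16.3 and 32.1 CPM with vehicle and 13.4, 13.6, 27.7, 26.6 and 27.0 CPM with liraglutide, a log2 fold change of 0.82 (SE 0.60, adjusted p = 0.657, edgeR).

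The inhibitors of the signal were not alike. Socs1, which is induced by interferon-gamma and blocks Jak kinases, was at 3.03, 2.43, 2.09, 4.59 and 7.88 CPM in the vehicle tumors and 4.05, 4.39, 7.11, 6.40 and 7.94 CPM in the liraglutide tumors (log2 fold change 0.57, SE 0.36, adjusted p = 0.612, edgeR). Vehicle tumors 1, 2 and 3 were again the lowest. Socs3, an inhibitor better known for cytokines that signal through Stat3, was at 40.2, 41.5, 42.6, 31.3 and 51.7 CPM with vehicle and 37.0, 46.2, 36.7, 45.6 and 42.4 CPM with liraglutide (log2 fold change 0.00, SE 0.14, adjusted p = 0.993, edgeR), with no such order. Il18bp, a secreted decoy for interleukin-18, averaged 12.5 ± 3.26 and 15.4 ± 4.07 CPM (log2 fold change 0.30).

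**Figure D3:**
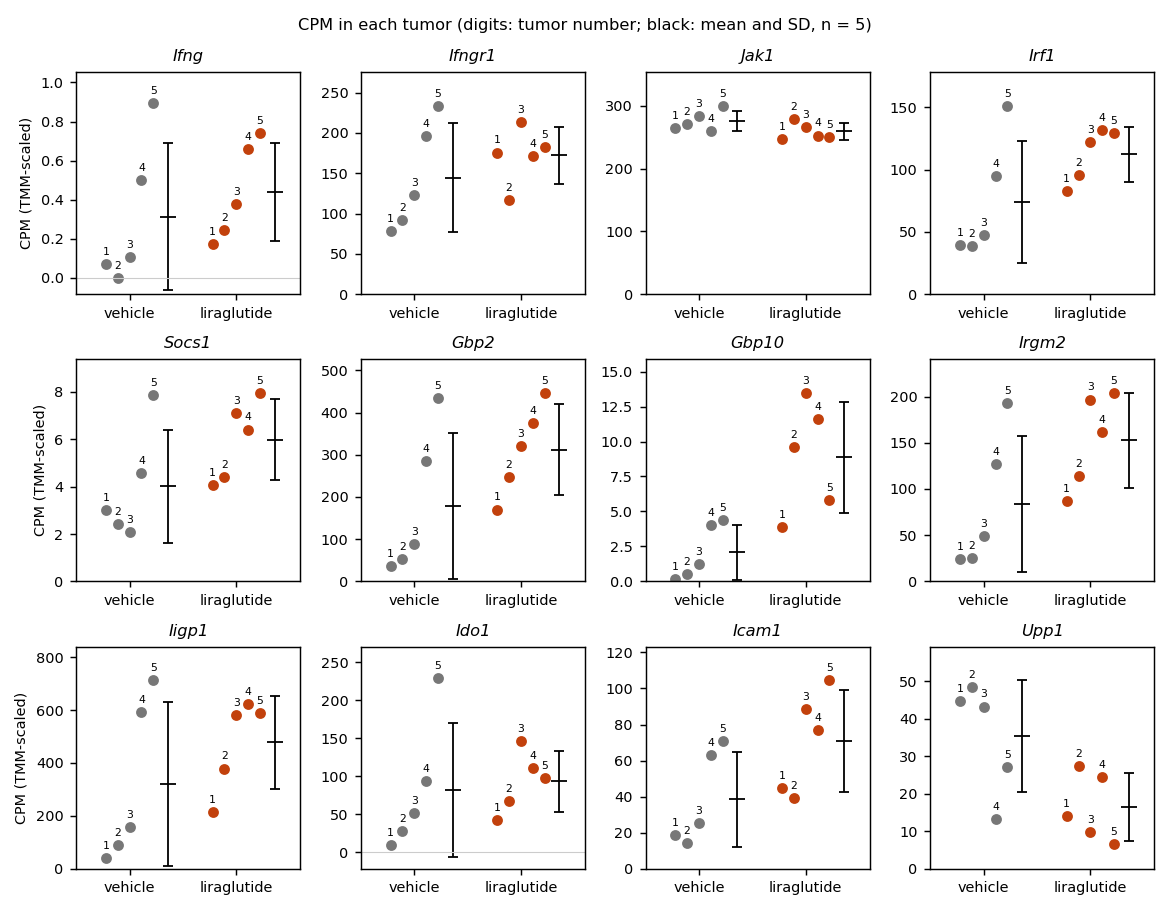
CPM (vertical axes, each on its own linear scale) in the 5 vehicle (grey) and 5 liraglutide (orange) tumors for 12 genes, with tumor numbers beside the points and the mean and SD in black. In Irf1, Gbp2, Irgm2, Iigp1 and Icam1 vehicle tumors 1, 2 and 3 lie below every liraglutide tumor and vehicle tumors 4 and 5 do not, and Upp1 runs the other way.

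All 10 guanylate-binding proteins had positive log2 fold changes, from 0.43 to 2.08 with a median of 0.89, and 1 of them had an unadjusted p under 0.05. They lie in clusters on chromosome 3 (Gbp5, Gbp7, Gbp3, Gbp2b and Gbp2, 142199739 to 142343779) and chromosome 5 (Gbp8, Gbp9, Gbp4, Gbp10 and Gbp6, 105162016 to 105443751, GRCm39). The median log2 fold change was 0.80 for the chromosome 3 genes and 0.92 for the chromosome 5 genes. Summed over the family, the vehicle tumors held 99.3, 148, 250, 757 and 1081 CPM and the liraglutide tumors 426, 679, 872, 1042 and 1113 CPM.

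Gbp2, the member with the highest level per length of the family and of the whole list at 95.8 CPM per kilobase of exon, was at 36.4, 54.3, 88.1, 284 and 433 CPM in the vehicle tumors and 170, 246, 320, 376 and 446 CPM in the liraglutide tumors. The means were 179 ± 173 and 312 ± 108 CPM (SD, n = 5), a log2 fold change of 0.80 (SE 0.61, adjusted p = 0.668, edgeR). The vehicle tumors spanned 11.9-fold and the liraglutide tumors 2.62-fold.

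Gbp10, on the minus strand of chromosome 5 from 105362773 to 105412666, came closest to separating the groups. It was at 0.207, 0.505, 1.26, 4.00 and 4.39 CPM with vehicle and 3.88, 9.60, 13.5, 11.6 and 5.79 CPM with liraglutide, and 4 of the 5 liraglutide tumors lay above every vehicle tumor. The log2 fold change was 2.08 (SE 0.66), with an unadjusted p of 0.00917 and an adjusted p of 0.482 in edgeR, and it stayed between 1.78 and 2.57 when single tumors were left out. Gbp10 is a low gene at 0.932 CPM per kilobase, and 59.6% of its 100-base windows also occur in other transcripts, mostly Gm43302 and Gbp6, so reads could be shared between them and its value is uncertain.

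In the remaining guanylate-binding proteins vehicle tumors 1, 2 and 3 were again the 3 lowest, and all had lower levels per length than Gbp2. Gbp6, with 53.6% of its windows shared with other transcripts, mostly Gm43302 and Gbp10, had a log2 fold change of 0.92, Gbp4 of 0.96, Gbp5 of 0.91, Gbp9 of 0.86, Gbp3 of 0.72, Gbp7 of 0.71 and Gbp8 of 0.43. Gbp2b was the lowest at 0 to 1.71 CPM with vehicle and 0.488 to 4.99 CPM with liraglutide (log2 fold change 1.46, adjusted p = 0.594, edgeR). In Gbp8, with the smallest difference of the family, vehicle tumor 5, at 52.6 CPM, was the highest of the 10, and liraglutide tumor 1, at 10.7 CPM, stood beside vehicle tumor 3 at 10.3 CPM.

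The 6 immunity-related GTPases had log2 fold changes from 0.52 to 0.87 with a median of 0.67, and none had an unadjusted p under 0.05. Their summed level was 102, 166, 313, 1018 and 1304 CPM in the vehicle tumors and 477, 738, 1138, 1124 and 1166 CPM in the liraglutide tumors. Irgm2, a regulatory member that keeps the effector GTPases inactive on host membranes, had the largest difference, with 24.2, 25.6, 48.9, 127 and 192 CPM with vehicle and 86.6, 114, 197, 162 and 204 CPM with liraglutide (log2 fold change 0.87, SE 0.55, adjusted p = 0.610, edgeR). Irgm2 and Igtp, another regulatory member, are neighbours on chromosome 11 (58089840 to 58113615) and overlap in 162 bases of exon, and Igtp had a log2 fold change of 0.86.

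Iigp1, an effector that coats pathogen vacuoles, was the highest of the 6 per length at 62.5 CPM per kilobase, second on the list to Gbp2. It was at 40.2, 91.6, 158, 593 and 712 CPM in the vehicle tumors and 215, 379, 582, 622 and 589 CPM in the liraglutide tumors (log2 fold change 0.58, SE 0.67, adjusted p = 0.775, edgeR). The lowest vehicle tumor was 17.7-fold under the highest, and vehicle tumor 5 exceeded every liraglutide tumor.

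Irgm1, the third regulatory member, averaged 41.5 ± 33.4 CPM with vehicle and 59.5 ± 16.1 CPM with liraglutide (log2 fold change 0.52). Tgtp1 and Tgtp2, effectors that are copies of each other on chromosome 11, had log2 fold changes of 0.73 and 0.60. Tgtp1 was at 8.40 to 112 CPM and Tgtp2 at 0.419 to 3.75 CPM with vehicle. They share 74.7% and 76.8% of their 100-base windows with other transcripts, mostly each other and Gm12185, so the division of reads between them is uncertain. The 4 genes with the paired promoter elements printed above (Igtp, Irgm2, Tgtp1 and Tgtp2) had log2 fold changes from 0.60 to 0.87, within the range of the other GTPases.

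**Figure D4:**
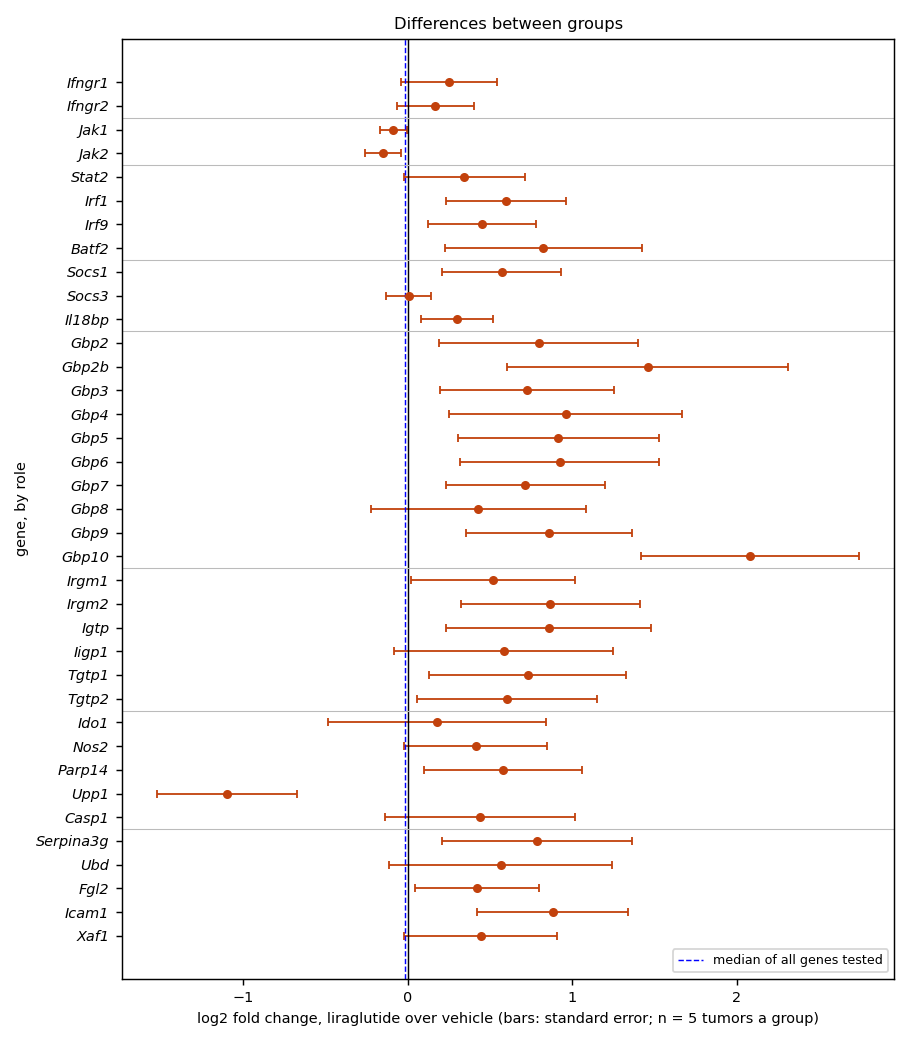
Points are log2 fold changes of liraglutide over vehicle (horizontal axis) and bars their standard errors for the 37 genes (vertical axis, ordered by role). Gbp10 at 2.08 lies farthest above the dashed median of all genes tested and Upp1 at -1.10 farthest below it.

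The inducible enzymes were mixed. Ido1, which breaks down tryptophan and is a known brake on T cells, was the highest of them at 48.0 CPM per kilobase. It was at 9.71, 27.5, 51.2, 94.1 and 229 CPM in the vehicle tumors and 42.9, 67.8, 147, 110 and 98.1 CPM in the liraglutide tumors (log2 fold change 0.18, SE 0.66, adjusted p = 0.942, edgeR). Vehicle tumor 5 alone was above all liraglutide tumors, and liraglutide tumor 1 was below vehicle tumor 3. The sign of its difference was not stable, running from -0.11 to 1.04 as single tumors were left out, the upper end without vehicle tumor 5.

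Upp1, uridine phosphorylase of pyrimidine salvage on chromosome 11 (9067953 to 9086370, plus strand), ran against the list. It was at 44.7, 48.5, 43.2, 13.3 and 27.2 CPM with vehicle and 14.1, 27.4, 9.90, 24.5 and 6.68 CPM with liraglutide. The means of 35.4 ± 14.8 and 16.5 ± 9.06 CPM (SD, n = 5) gave a log2 fold change of -1.10 (SE 0.43, unadjusted p = 0.0251, adjusted p = 0.499, edgeR). Here vehicle tumors 1, 2 and 3 were the highest of the 10, and vehicle tumors 4 and 5 lay within the liraglutide range.

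Parp14, an ADP-ribosyltransferase, had a log2 fold change of 0.58, Casp1, the inflammasome protease, of 0.44 and Nos2, the inducible nitric oxide synthase, of 0.41, with adjusted p-values from 0.694 to 0.806 in edgeR.

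Of the other inducible genes, Icam1, the adhesion molecule bound by leukocyte integrins, had the largest difference. It was at 18.5, 14.4, 25.2, 62.9 and 71.1 CPM in the vehicle tumors and 45.0, 39.1, 88.7, 76.7 and 104 CPM in the liraglutide tumors, a log2 fold change of 0.88 (SE 0.46, unadjusted p = 0.0802, adjusted p = 0.560, edgeR). Vehicle tumors 1, 2 and 3 lay below every liraglutide tumor, and 3 liraglutide tumors lay above every vehicle tumor.

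Ubd, a ubiquitin-like protein, had the highest level per length of these 5 at 11.3 CPM per kilobase. It was at 0.827, 2.93, 4.08, 16.7 and 17.9 CPM with vehicle and 4.48, 12.1, 19.0, 15.5 and 11.9 CPM with liraglutide (log2 fold change 0.57, SE 0.68, adjusted p = 0.784, edgeR). Serpina3g, an inducible protease inhibitor with 29.6% of its windows shared with its neighbours, had a log2 fold change of 0.79, the apoptosis factor Xaf1 of 0.44 and the secreted Fgl2 of 0.42.

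Genes of the pathway outside the list were compared next. Of 17 further signalling genes tested, 13 had positive log2 fold changes with a median of 0.23, and 1 had an unadjusted p under 0.05. That gene was Cish, a cytokine-induced inhibitor, at 3.10, 1.92, 3.66, 4.50 and 3.09 CPM with vehicle and 6.12, 4.47, 4.01, 5.46 and 6.30 CPM with liraglutide (log2 fold change 0.69, adjusted p = 0.482, edgeR). In 6 of these 17 genes the 3 lowest tumors were vehicle tumors 1, 2 and 3. Next by p came Ptpn2, a phosphatase that acts on Jak1, with a log2 fold change of -0.25 (adjusted p = 0.527, edgeR).

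Of 18 further inducible genes tested, including chemokines, proteasome subunits and antigen transporters, all 18 had positive log2 fold changes with a median of 0.43 and none had an unadjusted p under 0.05. The smallest p-values were those of Tapbp, the tapasin of peptide loading (log2 fold change 0.70, adjusted p = 0.541, edgeR), and of Gvin1, a very large inducible GTPase (log2 fold change 0.76, adjusted p = 0.657, edgeR). In 14 of these 18 genes vehicle tumors 1, 2 and 3 were the 3 lowest. Ifi47, another GTPase of the family, was listed at 0 in every tumor, and since the annotation release behind the counts is not known its reads may have been counted under another ID, so the 0 is not read as a level.

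Among 6 tested inducers of Ifng and their receptors, 5 had positive log2 fold changes, and in 1 of the 6 vehicle tumors 1, 2 and 3 were the 3 lowest. Il18, a cytokine that induces Ifng, was at 1.58, 2.12, 3.77, 4.84 and 3.17 CPM with vehicle and 4.82, 4.47, 5.97, 5.46 and 5.56 CPM with liraglutide, and its log2 fold change of 0.77 had an unadjusted p of 0.0185 and an adjusted p of 0.482 in edgeR. Il12rb1, a receptor chain for interleukin-12, had a log2 fold change of 0.86 (adjusted p = 0.567, edgeR). Of 16 genes known mainly from the type I interferon response, 9 were positive and 7 negative with a median of 0.20, and the smallest p-values were those of Oasl1 at -0.32 and Oasl2 at 0.62 (adjusted p = 0.577 and 0.610, edgeR). In 5 of these 16 genes vehicle tumors 1, 2 and 3 were the 3 lowest.

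The levels of the GTPases followed those of Ifng and of Ptprc, the pan-leukocyte surface phosphatase CD45, from tumor to tumor. Across the 10 tumors the log2 CPM of Ifng correlated with that of Irf1 (r = 0.940, rho = 0.952), Gbp2 (r = 0.926, rho = 0.964), Igtp (r = 0.914, rho = 0.915) and Iigp1 (r = 0.893, rho = 0.952). For Ptprc the values were 0.849 and 0.770 with Irf1, 0.856 and 0.818 with Gbp2, 0.863 and 0.745 with Igtp and 0.873 and 0.891 with Iigp1. In a two-sided permutation test with 100000 resamples the p-values of r were 3e-05 to 0.00129, and after adjustment over the 8 relations 0.000187 to 0.00129. Those of rho were 7e-05 to 0.0174, and adjusted 0.00032 to 0.0174. Without the 2 tumors farthest from the median, vehicle tumors 2 and 5 for Ifng and 1 and 2 for Ptprc, r was 0.876 to 0.908 and 0.728 to 0.905. Both measures of a pair come from the same library, Ifng rests on at most 11 counts, and groups were pooled, with no correlation computed within the 5 tumors of a group. Ifng and Gbp2 ranked the liraglutide tumors alike, and their rankings of the vehicle tumors differed only in tumors 1 and 2, which held 1 and 0 Ifng counts.

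**Figure D5:**
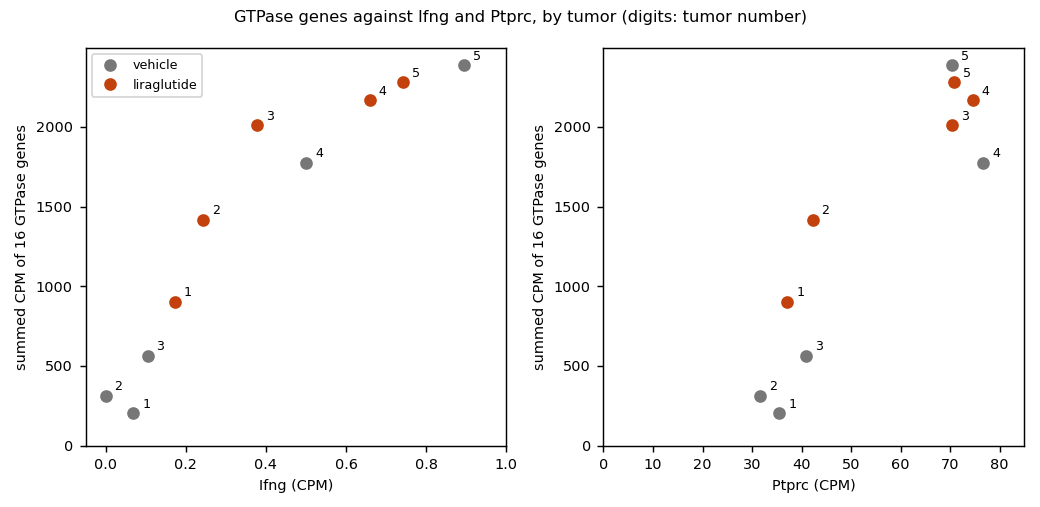
Summed CPM of the 16 GTPase genes (vertical axes) against the CPM of Ifng (left) and Ptprc (right), 1 point per tumor with its number, vehicle in grey and liraglutide in orange. Vehicle tumors 1, 2 and 3, with sums of 202 to 563 CPM, lie at the lower left, vehicle tumor 4, at 1776 CPM, lies within the range of the liraglutide tumors, 903 to 2279 CPM, and vehicle tumor 5, at 2385 CPM, lies above it.

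Markers of T and NK cells moved with these genes. The summed level of 11 such markers was 6.89, 6.97, 9.32, 22.5 and 40.5 CPM in the vehicle tumors and 12.8, 20.3, 43.5, 30.8 and 37.1 CPM in the liraglutide tumors, and 9 of 9 tested had positive log2 fold changes with a median of 0.80, none with an unadjusted p under 0.05. Cd8a, a chain of the cytotoxic T cell co-receptor, was at 0.758, 1.62, 1.78, 4.34 and 8.61 CPM with vehicle and 1.21, 5.04, 10.2, 6.12 and 8.38 CPM with liraglutide. The only NK receptor genes on that list, Ncr1 and Klrb1c, were at 0 to 1.54 and 0.0689 to 1.41 CPM. Ptprc ranged from 31.6 to 76.7 CPM with vehicle and from 37.1 to 74.6 CPM with liraglutide.

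Markers of other cells did not share one direction. Summed macrophage markers were at 572 to 1115 CPM with vehicle and 605 to 783 CPM with liraglutide, with vehicle tumors 1, 2 and 3 the highest of the 10. That order was set by Mrc1, a mannose receptor of tissue macrophages, at 671, 722 and 759 CPM in those 3 tumors and 190 to 455 CPM in the other 7 (log2 fold change -0.74, adjusted p = 0.529, edgeR). The other 6 macrophage markers tested had positive log2 fold changes, and without Mrc1 the sums were 241, 234, 356, 423 and 355 CPM with vehicle and 281, 253, 499, 374 and 415 CPM with liraglutide, lowest in vehicle tumors 1 and 2. Summed dendritic cell markers were at 31.1, 22.7, 29.7, 62.6 and 70.1 CPM with vehicle and 37.2, 42.5, 59.4, 43.4 and 58.9 CPM with liraglutide. Like the GTPases, these sums were lowest in vehicle tumors 1, 2 and 3. Singly, 2 of the 5 dendritic cell markers had that order, beside 5 of the 9 T and NK cell markers tested. Of the 5 dendritic cell markers, 2 had positive and 3 negative log2 fold changes. Fibroblast markers were at 825 to 1999 and 1128 to 2222 CPM, neutrophil markers at 4.92 to 12.4 and 5.60 to 11.6 CPM, endothelial markers at 78.2 to 126 and 79.2 to 102 CPM and B cell markers at 0.524 to 1.58 and 0.188 to 1.29 CPM. Adipocyte markers ranged from 3.31 to 25.0 and 4.88 to 26.5 CPM and skeletal muscle markers from 19.6 to 189 and 43.6 to 232 CPM. Keratinocyte markers were at 8.33 to 14.6 CPM with vehicle and 6.63 to 142 CPM with liraglutide, and 2 of the 3 had an unadjusted p under 0.05. The 6 markers of lung adenocarcinoma and epithelium summed to 3795 to 7432 CPM with vehicle and 3992 to 5771 CPM with liraglutide, and 4 of them had positive and 2 negative log2 fold changes, the negative ones being the abundant keratins Krt8 at -0.26 and Krt18 at -0.23. In 2 of the 6, vehicle tumors 1, 2 and 3 were the 3 lowest. Nkx2-1, named after its values were seen, was 1 of those and was at 25.1, 17.7, 26.5, 95.1 and 66.4 CPM with vehicle and 65.9, 52.0, 108, 99.6 and 132 CPM with liraglutide (log2 fold change 0.99, unadjusted p = 0.0495, adjusted p = 0.520, edgeR). The part of these cells in the values of the interferon genes was not tested, and in bulk RNA fewer cells of a type and less RNA per cell cannot be told apart.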

How the data were processed

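RNA was measured in 10 tumors, grouped by the labels into 5 vehicle and 5 liraglutide. Per the study's methods, ribosomal RNA was depleted, strand-marked libraries were read as pairs, and the authors used Bowtie and TopHat for alignment and featureCounts for counting. The authors deposited raw counts per gene with no normalization. The methods name GRCm39, whereas the submitters' processing notes name mm10, GRCh38 and FastQC. The counts carry Ensembl gene IDs and no coordinates. The annotation release and the strand and multimapping settings are not given in the sources used here.

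Symbols, coordinates and exon lengths came from GENCODE M39 (GRCm39). 51731 IDs (93.38%), holding 98.31% of counts, matched. Promoters came from RefSeq's GRCm38.p6 table, and each was placed on GRCm39 by its exact sequence. Genes were filtered with edgeR's filterByExpr and scaled by TMM. The edgeR 4.0.16 quasi-likelihood F test in R 4.3.3 had treatment as its only term, with Benjamini-Hochberg adjustment over all 17464 genes tested and a threshold of 0.05. Correlations used log2 CPM with a prior count of 2. Alternatives were DESeq2 1.42.0, limma-voom (limma 3.58.1), other scalings, filters and dispersions, a block on tumor number, and each tumor left out. Scripts were tested on simulated data.

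Genes and lists were chosen with earlier results of these data known. Per-tumor values are given for Ifng, Ifngr1, Ifngr2, Jak1, Jak2, Stat2, Irf1, Irf9 and Socs1 and, by role, for the gene with the smallest p, the largest fold change and the highest level per length, and otherwise levels or fold changes. Outside the list, the 2 genes of smallest p per pathway list are named, a further gene is not reported here, and Cd8a and Nkx2-1 were chosen after their values were seen. No source says whether tumors shared cages or days, and the edgeR p-values set the group difference against the spread between these tumors.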

Additional observations from a re-analysis of the deposited data

Results flagged for a closer look

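Ifngr2 in liraglutide tumor 2, at 74.6 CPM, stood apart from the other 4 liraglutide tumors, of which the nearest was at 113 CPM. The gap was 0.735 of the group's whole range, above Dixon's critical value of 0.71 for 5 values. It was 1 of 74 groups examined, and chance flags about 1 in 20. Vehicle tumors 1 and 2, at 71.5 and 69.7 CPM, were lower still.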

How the results depend on the processing

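No alternative called a gene of the list at an adjusted p under 0.05 in edgeR or limma-voom, nor did DESeq2 among the 17 of 37 for which it gave an adjusted p, and over all genes 102 were called by DESeq2 and 0 by the other fits. In 193 of 208 comparisons of a summary with its alternatives the result counted as unchanged. For a count this meant within 1.5 times the main count, or 0 in both. For the median it meant the same sign and a move smaller than the spread between tumors. For a correlation it meant the same sign of r and the same side of an adjusted p of 0.05 in the permutation test. Genes higher with liraglutide at an unadjusted p under 0.05 numbered 1166 of all genes and 2 of the list when every gene with at least 1 count was fitted, and 0 of the list with at least 10 counts in every tumor, where Gbp10 was left out. With limma-voom 848 of all genes (4.86%) and 11 of the list passed. With single tumors left out they numbered 391 to 1268 of all genes and 1 to 18 of the list, the list reaching 18 without vehicle tumor 5, 4 without vehicle tumor 4 and 2 without liraglutide tumor 2. Genes of the list whose groups did not overlap numbered 0 to 1, the 1 without liraglutide tumor 1. The log2 fold change of Socs3 turned to -0.00778, -0.0746, -0.0276 and -0.0235 without vehicle tumor 1, vehicle tumor 4, liraglutide tumor 2 and liraglutide tumor 4, and that of Ido1 to -0.112, -0.0454 and -0.0426 without vehicle tumor 1, vehicle tumor 2 and liraglutide tumor 3. Their ranges over single tumors left out were -0.0746 to 0.102 and -0.112 to 1.04. The cause was not tested. Library size without TMM moved the median of all genes to 0.04 and that of the list to 0.63.

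No label ties tumors of the same number in the 2 groups to each other, and they were not treated as pairs. The deviations of same-numbered tumors from their group means correlated at 0.354, 0.565, -0.0753, 0.0681 and 0.389, above 0.1 in 3 of 5 pairs, with a mean of 0.26 against -0.0682 for tumors of different number, and 1 vehicle tumor correlated best with its own number. Whether same-numbered tumors share a cage or day was not tested. With a block on tumor number, 1309 of all genes (7.5%) and 24 of the list were higher at an unadjusted p under 0.05, the median of the list was 0.91, and no gene was called (smallest adjusted p = 0.228, edgeR). Outside the list, genes under the block were counted only as totals. Depth limits Ifng, Gbp2b, Gbp10 and Tgtp2 most, which held few counts in the lowest tumors.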
